A study of Mus musculus with 16 samples.

Results

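The comparison described here asks whether loss of Mfap2 was associated with a different liver transcriptome after carbon tetrachloride (CCl4) was stopped than while it was still being given. Mfap2 encodes microfibril-associated glycoprotein 1, a small protein bound to fibrillin microfibrils in the extracellular matrix, and CCl4 is a liver poison, activated in pericentral hepatocytes, whose repeated dosing leads to fibrosis. The value for each gene is a difference of differences, namely knockout minus wild type after cessation, minus knockout minus wild type at 8 weeks, on the log2(FPKM + 1) scale. FPKM are sequenced fragments scaled for transcript length and library size. A positive value means that the knockout stood relatively higher after cessation than at 8 weeks, and a negative value that it stood relatively lower. All 16 liver libraries of the series entered, and 10647 of the 12446 genes listed in both deposited tables were tested, those with a mean of at least 0.5 FPKM in each table.

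The groups were Mfap2-/- mice given intraperitoneal CCl4 for 8 weeks and then left for 4 weeks without it, Mfap2+/+ mice treated in the same way, Mfap2-/- mice sampled after 8 weeks of CCl4, and Mfap2+/+ mice sampled after 8 weeks of CCl4. Each group had 4 mice, the mice of the stages were different animals, and all 16 had received CCl4. Mice without CCl4 were not analysed here, and the labels give neither strain, age nor sex. The labels name no Cre driver or targeted cell type for the knockout. Mfap2 (ENSMUSG00000060572, chr4:141010418-141015984 of mm10, plus strand) was listed at 0 in all 8 knockout libraries. Wild-type mice had 0.17, 0.21, 0.44 and 0.47 FPKM after cessation, and 0.902, 0.972, 1.40 and 3.07 FPKM at 8 weeks. Its mean after cessation lay under the minimum for testing, so no difference of differences was computed for it.

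Livers repeatedly injured by CCl4 accumulate collagen made by activated stellate cells and recruit monocytes, while hepatocytes lose metabolic functions such as bile acid synthesis. When the toxin is withdrawn, scar is partly degraded, macrophages change in kind and hepatocytes recover. Interferon-stimulated genes, which include antiviral effectors and are switched on when interferons bind their receptors, are expressed in liver by both immune and parenchymal cells. In a bulk library, fewer cells of a type and less RNA per cell cannot be told apart.

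Stage, deposited table and possibly library kit cannot be told apart either, so levels are compared only between genotypes of one stage. Albumin, which defines hepatocytes, took 2.80% to 6.92% of the FPKM over tested genes in knockout and 4.87% to 6.71% in wild-type libraries after cessation, and 4.07% to 6.13% in knockout and 6.32% to 10.5% in wild-type libraries at 8 weeks. Some libraries stood apart on the first principal component of their stage, which held 46.3% of the variance after cessation and 53.8% at 8 weeks. After cessation knockout mice 3 and 2 lay at 35.6 and 16.6 and wild-type mouse 1 at 33.9, with the other 5 libraries between -19.4 and -14.4. Mitochondrial transcripts took 37.5%, 32.4% and 38.1% of the FPKM in these mice, in that order, and 23.5% to 29.8% in the other 5. The reason was not tested. At 8 weeks wild-type mice 1 and 2 lay at -42.7 and -47.0, with the other 6 libraries between -9.48 and 36.1. Values without these libraries are given beside the results they moved most. Knockout minus wild type had a median over genes of 0.10 after cessation and 0.23 at 8 weeks, so the median difference of differences was -0.12. List medians are therefore given relative to it.

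No gene passed the threshold for the difference of differences. The smallest adjusted p over 10647 genes was 0.166 (limma, Benjamini-Hochberg), for Bhmt, so 0% of genes were called. At an unadjusted limma p under 0.05 there were 294 genes (2.76%), of which 81 were positive (0.761%) and 213 negative (2%). By chance alone, 5% would be 532.4 genes. With 4 mice a group, the unadjusted 95% interval of a typical gene reached 0.64 log2 units to either side of its value. That is not the detection limit after adjustment over 10647 genes, where the 2.94 of Bhmt did not pass either. Each scaling or left-out pair gives its own set of genes at that p. The negative share was 72.4% of 294 as deposited, 84.7% of 333 after rescaling to a common total, 45.7% of 326 after median-ratio scaling, 50% of 344 after quantile normalization, 33.6% of 280 without wild-type 8-week mice 1 and 2, and 53.7% of 123 without knockout 8-week mice 3 and 4. The sign of a single gene near the median therefore depends on scaling. The text below describes genes and lists that lie far from it and some that lie close to it.

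The genotype difference itself was smaller in size after cessation than at 8 weeks for 70% of genes, for 58.1% once libraries were scaled by median ratios and for 57.1% once quantiles were equalised. The share was 52.3% without wild-type 8-week mice 1 and 2 and 60.7% without knockout 8-week mice 3 and 4. Knockout minus wild type passed the adjusted threshold for 0 genes after cessation and for 46 at 8 weeks, 39 higher (0.366%) and 7 lower (0.0657%). At an unadjusted p under 0.05, 572 were higher and 100 lower after cessation, and 1703 higher and 218 lower at 8 weeks. The 8-week count moved between 0 and 1254 with the setting, so calls at 8 weeks are given below only beside the mice's own values. After cessation, genotypes did not overlap for 394 genes higher in the knockout (3.7%) and 104 lower (0.977%). At 8 weeks the counts were 645 (6.06%) and 67 (0.629%). Without overlap at both stages, 70 genes were higher each time (0.657%), 5 were lower each time (0.047%) and 3 changed sides (0.0282%).

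**Figure D1:**
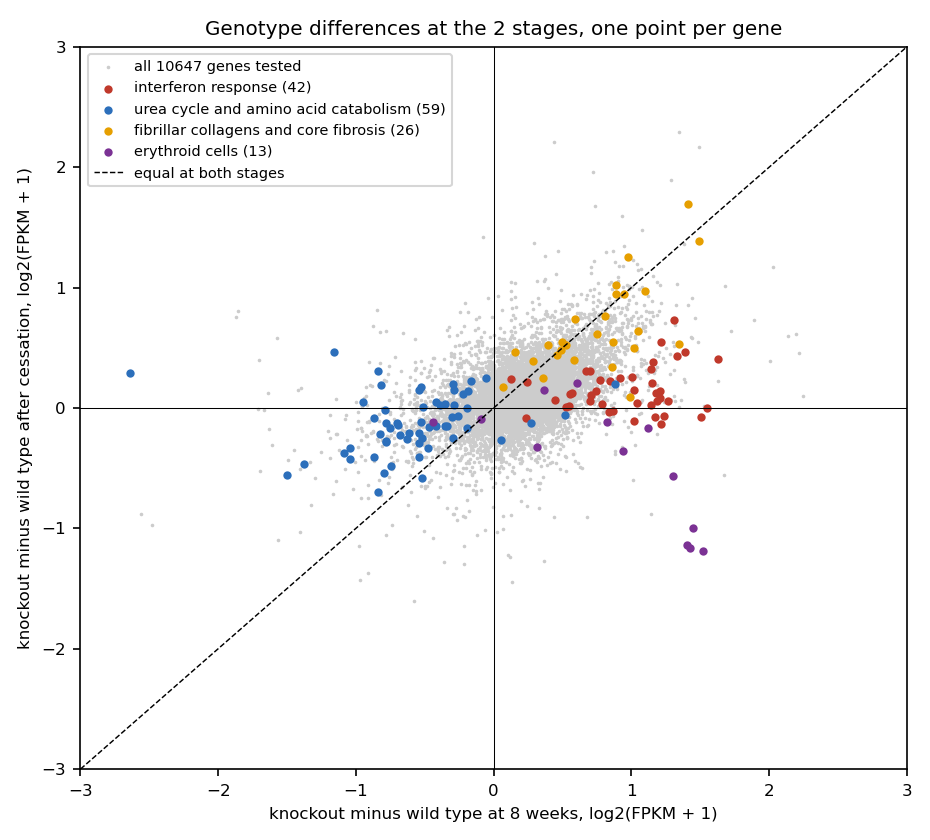
Each point is a gene, with knockout minus wild type at 8 weeks on the x axis and after cessation on the y axis, both on the log2(FPKM + 1) scale. Points on the dashed line have equal genotype differences at both stages. Interferon genes lie to the right near a cessation value of 0, urea cycle and amino acid genes to the left near 0, collagen genes along the dashed line and globin genes at the lower right.

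Across the 46 gene lists examined, list medians relative to the median of all genes ran from -1.17 for erythroid genes to 0.60 for the acute phase response. The lists were written with earlier results of these data known, and their medians are descriptions without a test. The lists farthest below were erythroid cells, the interferon response (-0.68) and cytosolic chaperones (-0.47). Those farthest above were the acute phase response, urea cycle and amino acid catabolism (0.53), complement and coagulation (0.45) and scar-associated macrophages (0.44). Without wild-type 8-week mice 1 and 2 the erythroid list lay at -0.76 and the acute phase list at 0.30. The scar-associated macrophage list lay at 0.17 without knockout 8-week mice 3 and 4 and at 0.22 without cessation knockout mice 2 and 3 and wild-type mouse 1. Lists of fibrillar collagens (0.11), activated stellate cells (-0.02), and monocytes and recruited macrophages (-0.04) lay close to all genes.

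**Figure D2:**
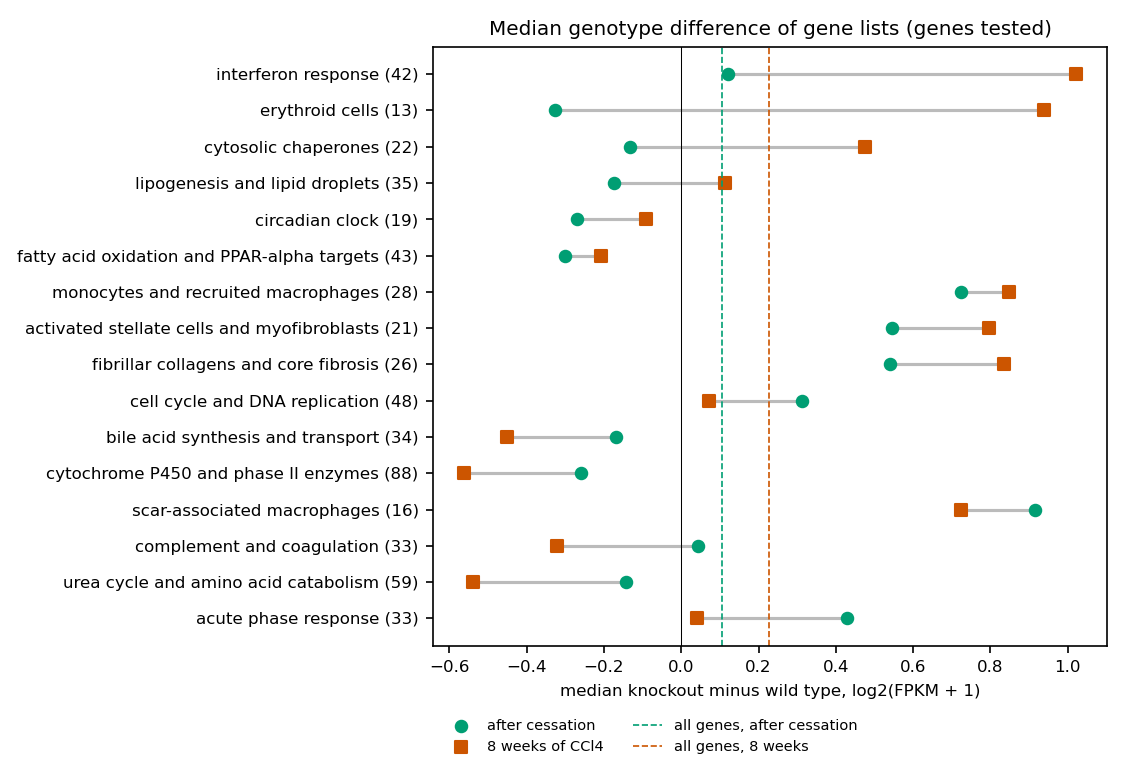
Median knockout minus wild type of 16 gene lists on the log2(FPKM + 1) scale, with circles for the livers after cessation and squares for the livers at 8 weeks; the number of genes tested stands in brackets and dashed lines mark the median of all genes at each stage. Interferon genes have a median of 0.12 after cessation and 1.02 at 8 weeks, while fibrillar collagen genes stay at 0.54 and 0.84.

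The interferon response was the list in which most genes had an unadjusted p under 0.05. Of its 42 genes tested, 41 had a negative difference of differences, against 69.2% of all genes, and 23 had an unadjusted limma p under 0.05, all negative, against 2% of all genes. After median-ratio scaling 11 of the 42 did, all negative, against 149 negative among all 10647 genes. After quantile normalization 14 of the 42 did, all negative, against 172 negative among all genes. At 8 weeks all 42 were higher in the knockout, against 82.2% of all genes, 17 without overlap, and the list median was 1.02. After cessation 34 were higher, against 71.4% of all genes, and 8 lower, 4 were higher without overlap, and the list median was 0.12, close to the 0.10 of all genes. Summed over the list, knockout livers had 725.5 to 1062 FPKM and wild-type livers 732.7 to 920.4 FPKM after cessation, and the genotypes overlapped. At 8 weeks the sums were 1028 to 1824 FPKM in knockout and 672.6 to 869.9 FPKM in wild-type livers, with no overlap.

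Part of these genes carry a known element in front of their start site. The list was written to hold genes that interferons switch on. The share of its genes with the element is therefore no independent evidence about these livers. The search was for TTTCNNTTTC or its reverse complement GAAANNGAAA, the core of the interferon-stimulated response element that interferon-activated factors recognise, in the 250 bases before each start in RefSeq (GRCm38.p6, which shares the coordinates of mm10). It was found in 15 of the 30 interferon list genes with a promoter entry (50%), against 302 of 8612 tested genes with an entry (3.51%). The stretches below run 5′ to 3′ on the gene's own strand with the matches in capitals. The Isg15 stretch covers chr4:156200861-156200910 (minus strand, positions -92 to -43 from the start), where 3 matches overlap each other. Ifit3 covers chr19:34583359-34583430 (plus strand, -170 to -99), Ifit1 chr19:34640771-34640827 (plus strand, -118 to -62) and Oas3 chr5:120777711-120777748 (minus strand, -89 to -52).
Isg15: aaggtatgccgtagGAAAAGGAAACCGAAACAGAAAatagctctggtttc
Ifit3: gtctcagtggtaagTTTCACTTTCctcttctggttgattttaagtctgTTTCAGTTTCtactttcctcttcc
Ifit1: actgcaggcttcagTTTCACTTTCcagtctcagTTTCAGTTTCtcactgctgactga
Oas3: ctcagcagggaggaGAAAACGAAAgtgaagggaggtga
A match describes the sequence and does not show that a factor was bound in these livers.

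Isg15 (ENSMUSG00000035692, chr4:156199424-156200818, minus strand), a ubiquitin-like protein that is attached to other proteins after interferon, stood at 23.3, 38.2, 39.8 and 23.5 FPKM in knockout and 22.9, 22.6, 23.1 and 21.6 FPKM in wild-type mice after cessation, in the order of mice 1 to 4 used throughout. The 8-week values were 65.7, 41.8, 122 and 126 FPKM in knockout and 20.5, 32.6, 18.9 and 32.9 FPKM in wild-type mice. Every knockout mouse was above every wild-type mouse at both stages, by a narrow margin for knockout mice 1 and 4 after cessation and by a wide one for knockout mice 3 and 4 at 8 weeks. The log2 difference was 0.41 after cessation and 1.63 at 8 weeks (limma adjusted p = 0.93 and 0.027), and the difference of differences was -1.22 (95% interval -2.10 to -0.34, limma adjusted p = 1.00).

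Ifit3 (ENSMUSG00000074896, chr19:34583531-34588731, plus strand), an RNA-binding antiviral effector, showed the larger shift. It had 11.2, 13.7, 14.3 and 14.1 FPKM in knockout and 14.1, 15.4, 13.3 and 10.6 FPKM in wild-type mice after cessation, where the genotypes overlapped throughout. Values at 8 weeks were 37.5, 21.9, 67.9 and 90.4 FPKM in knockout and 20.1, 16.7, 7.41 and 22.9 FPKM in wild-type mice, with knockout mouse 2 under wild-type mouse 4. The difference of differences was -1.55 (interval -2.58 to -0.52, limma adjusted p = 1.00). Ifit1, of the same family, averaged 6.46 ± 1.78 FPKM in knockout and 6.81 ± 2.18 FPKM in wild-type livers after cessation, and 13.1 ± 8.60 and 4.07 ± 0.604 FPKM in knockout and wild-type livers at 8 weeks (SD, n = 4), a difference of differences of -1.30.

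Oas3, which makes the oligoadenylates that activate RNase L, had 0.40, 0.88, 1.29 and 0.60 FPKM in knockout and 1.04, 0.49, 0.68 and 0.76 FPKM in wild-type mice after cessation. In 8-week livers it measured 5.64, 3.31, 10.2 and 8.28 FPKM in knockout and 2.44, 1.78, 1.68 and 3.84 FPKM in wild-type mice. The groups overlapped after cessation, and at 8 weeks knockout mouse 2 alone lay within the wild-type range. The difference of differences was -1.12 (interval -1.88 to -0.36). Oas3 levels after cessation lie near or below 1 FPKM, where the added 1 compresses log2 differences.

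Irf7, a transcription factor that amplifies interferon production, showed the same arrangement and is named here after its values were seen. It averaged 41.1 ± 5.15 FPKM in knockout and 41.3 ± 13.7 FPKM in wild-type livers after cessation, against 139 ± 64.2 FPKM in knockout and 63.2 ± 10.05 FPKM in wild-type livers at 8 weeks (SD, n = 4), a difference of differences of -1.001. Knockout and wild-type mice did not overlap at 8 weeks and overlapped after cessation.

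Outside the list, Ms4a4c, a membrane protein of the CD20 family, and Slfn1, a schlafen protein of lymphocytes and macrophages, were among the 10 negative genes with the smallest p. Ms4a4c had 1.95, 1.98, 3.59 and 2.10 FPKM in knockout and 1.92, 1.57, 2.30 and 1.68 FPKM in wild-type mice after cessation. Mice at 8 weeks had 9.50, 8.56, 25.6 and 24.8 FPKM in knockout and 4.83, 3.53, 3.84 and 4.92 FPKM in wild-type mice, with no overlap. Its difference of differences was -1.40 (interval -2.23 to -0.57), and that of Slfn1 was -1.29 (interval -2.06 to -0.53). Cxcl10, an interferon-induced chemokine that attracts T cells, was one of the 4 genes without overlap after cessation. It had 6.42, 7.05, 9.15 and 6.05 FPKM in knockout and 2.73, 5.57, 3.51 and 4.14 FPKM in wild-type mice after cessation, without overlap, and averaged 18.9 ± 8.86 and 6.78 ± 3.39 FPKM in knockout and wild-type livers at 8 weeks (SD, n = 4). Its difference of differences was -0.58 (interval -1.54 to 0.37), and -0.02 without knockout 8-week mice 3 and 4.

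The interferon values rest to a large part on 2 libraries. Relative to the gene means of their stage, the 42 genes averaged 0.14, -0.16, 1.04 and 0.88 log2 units in knockout mice 1 to 4 at 8 weeks, against -0.42, -0.42, -0.70 and -0.37 in wild-type mice 1 to 4. After cessation they averaged -0.12, 0.16, 0.21 and 0.06 in knockout and 0.08, -0.18, -0.04 and -0.16 in wild-type mice. Without knockout 8-week mice 3 and 4, an alternative chosen after seeing the data, the list lay 0.31 below all genes in place of 0.68. The differences of Isg15, Ifit3, Ms4a4c and Slfn1 were then -0.61, -0.84, -0.71 and -0.75, and those of Ifit1, Oas3 and Irf7 were -0.48, -0.655 and -0.59. In that setting 3 of 42 genes were positive, against 42.3% of all genes, and 39 negative. None of the 42 had an unadjusted limma p under 0.05 (0 at an adjusted p under 0.05). Of all genes tested, 66 had an unadjusted p under 0.05 in the negative direction. Markers of monocytes and recruited macrophages had summed levels of 1630 to 3029 FPKM in knockout and 1254 to 1568 FPKM in wild-type livers after cessation, and 1589 to 2970 FPKM in knockout and 1234 to 1890.0 FPKM in wild-type livers at 8 weeks. None of their 28 genes was at 0 in any library, and their part in the interferon values was not tested.

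**Figure D3:**
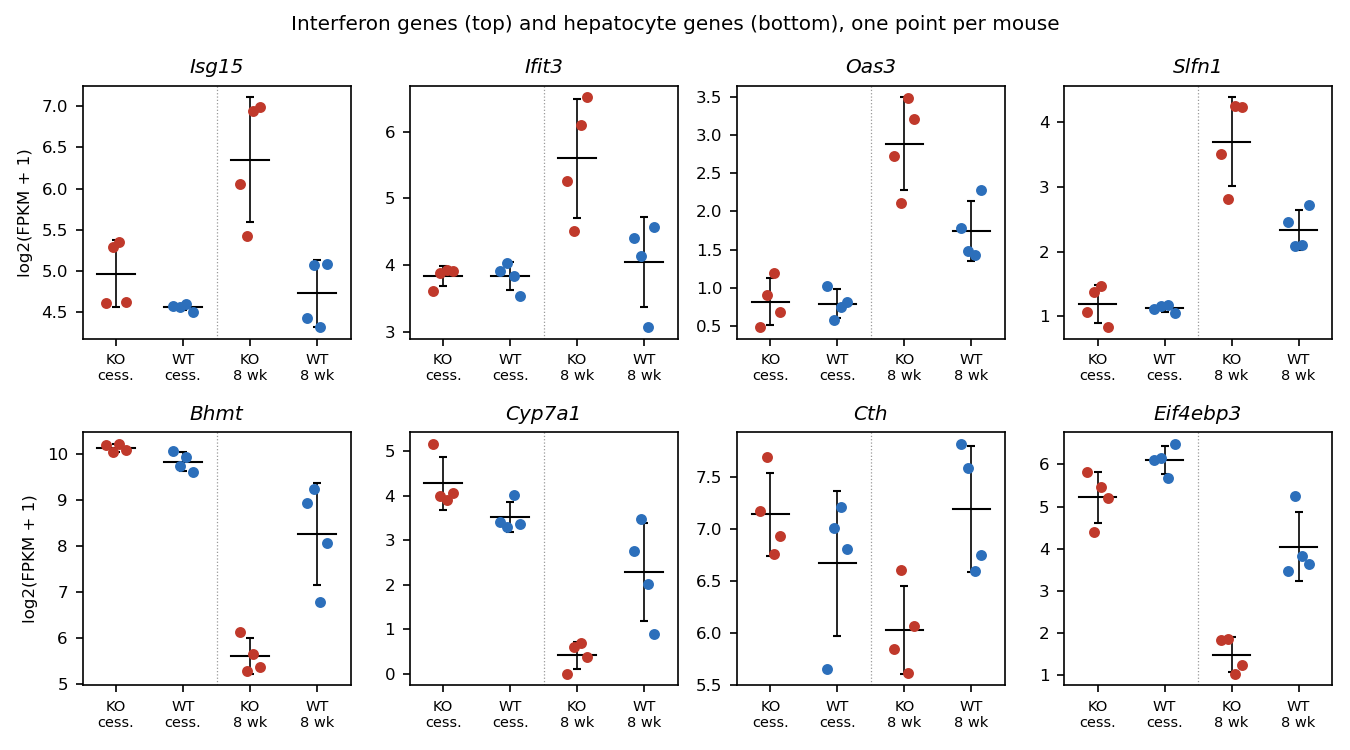
Levels of 4 interferon genes (top) and 4 hepatocyte genes (bottom) in each mouse, on the log2(FPKM + 1) scale, with the group mean and SD; knockout stands left of wild type and the livers after cessation left of those at 8 weeks. The interferon genes are high in knockout mice at 8 weeks, and Bhmt, Cyp7a1 and Eif4ebp3 are low there. After cessation the genotypes overlap for every gene but Isg15, with Eif4ebp3 lower and Cyp7a1 higher in the knockout on average.

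Enzymes that hepatocytes use to handle amino acids and to make bile acids lay on the other side. Most were lower in the knockout at both stages, with list medians nearer to wild type after cessation. Of 59 urea cycle and amino acid genes tested, 54 had a positive difference of differences, against 30.8% of all genes, and 2 had an unadjusted limma p under 0.05, both positive, against 0.761% of all genes. At 8 weeks 55 were lower in the knockout, 6 without overlap, with a list median of -0.54. After cessation 39 were lower, 0 without overlap, with a list median of -0.14. Of all genes, 17.8% were lower at 8 weeks and 28.6% after cessation, and 0.629% and 0.977% were lower without overlap. The median of all genes was 0.23 at 8 weeks and 0.10 after cessation. Of 34 bile acid genes, 24 were positive and 6 had an unadjusted p under 0.05, all positive. Of the 34, 30 were lower at 8 weeks and 25 after cessation, 7 and 2 of them without overlap. Their list medians were -0.45 and -0.17. Of 88 cytochrome P450 and phase II enzyme genes, 68 were positive and 4 had an unadjusted p under 0.05. Of the 88, 82 were lower at 8 weeks and 69 after cessation, 6 and 7 of them without overlap. Their list medians were -0.56 and -0.26.

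Bhmt (ENSMUSG00000074768, chr13:93616675-93637961, minus strand), which remethylates homocysteine to methionine with betaine, had the smallest p of all genes. It stood at 1161, 1044, 1183 and 1074 FPKM in knockout and 1057, 849.7, 976 and 775 FPKM in wild-type mice after cessation, where the ranges overlapped. At 8 weeks it had 69.3, 38.0, 49.7 and 40.4 FPKM in knockout and 489, 605, 109 and 267 FPKM in wild-type mice, and every knockout mouse was below every wild-type mouse. The log2 difference was 0.29 after cessation and -2.64 at 8 weeks, and the difference of differences was 2.94 (95% interval 1.86 to 4.01, limma adjusted p = 0.166). It was 2.10 without wild-type 8-week mice 1 and 2, which had the 2 highest 8-week values, and its adjusted p was 2.0e-04 without wild-type 8-week mouse 3, which had the lowest. Across the 29 alternatives tried, the value stayed positive and the adjusted p was otherwise above 0.05.

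Cth, which makes cysteine from cystathionine downstream of homocysteine, stood at 143, 205, 107 and 121 FPKM in knockout and 49.3, 127, 147 and 111 FPKM in wild-type mice after cessation. While CCl4 was given the levels were 56.5, 96.0, 47.8 and 65.9 FPKM in knockout and 224, 191, 95.4 and 107 FPKM in wild-type mice, with knockout mouse 2 just above wild-type mouse 3. Its difference of differences was 1.63 (interval 0.63 to 2.62). Agxt, which clears glyoxylate in peroxisomes, averaged 268 ± 88.8 and 211 ± 33.7 FPKM in knockout and wild-type livers after cessation, and 55.0 ± 30.3 and 106 ± 65.6 FPKM at 8 weeks (SD, n = 4). Its difference of 1.14 had an interval of -0.08 to 2.36, and it was 0.29 without wild-type 8-week mice 1 and 2.

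In bile acid synthesis, Cyp7a1 (ENSMUSG00000028240, chr4:6265612-6275633, minus strand), the rate-limiting enzyme of the classic pathway, had 34.9, 14.8, 14.03 and 15.7 FPKM in knockout and 9.61, 8.89, 15.1 and 9.33 FPKM in wild-type mice after cessation. Only wild-type mouse 3 reached into the knockout range. The 8-week values were 0, 0.523, 0.598 and 0.3001 FPKM in knockout and 5.75, 10.2, 3.03 and 0.843 FPKM in wild-type mice, with every knockout mouse below every wild-type mouse. The difference of differences was 2.63 (interval 1.41 to 3.84, limma adjusted p = 0.69), 1.79 without wild-type 8-week mice 1 and 2, and 3.09 with an adjusted p of 0.017 without wild-type 8-week mouse 4.

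Cyp8b1, the hydroxylase that directs synthesis to cholic acid, had 80.8, 51.0, 46.7 and 20.7 FPKM in knockout and 33.2, 20.7, 52.6 and 10.97 FPKM in wild-type mice after cessation. Values at 8 weeks were 0.301, 2.00, 4.26 and 6.56 FPKM in knockout and 7.81, 34.8, 17.2 and 3.66 FPKM in wild-type mice. The genotypes overlapped at both stages, and the interval of its difference of 2.66 was wide (0.63 to 4.69). Hsd3b7 and Akr1d1, which reshape the sterol ring, had differences of 1.14 (interval 0.43 to 1.86) and 1.30 (interval 0.31 to 2.29). Akr1d1 was at 0.76 without wild-type 8-week mice 1 and 2. Akr1d1 stood at 45.6, 32.9, 15.4 and 50.6 FPKM in knockout and 25.2, 51.0, 51.2 and 43.3 FPKM in wild-type mice after cessation, and at 3.61, 3.86, 3.74 and 3.08 FPKM in knockout and 20.2, 18.2, 9.65 and 7.64 FPKM in wild-type mice at 8 weeks. Slco1a4, a sinusoidal uptake transporter named after its values were seen, had a difference of 1.06 (interval 0.24 to 1.89; 0.70 without that pair).

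Other hepatocyte genes also had positive differences. Eif4ebp3 (chromosome 18), which restrains cap-dependent translation, had 55.6, 20.1, 43.4 and 36.1 FPKM in knockout and 67.9, 70.1, 50.5 and 88.7 FPKM in wild-type mice after cessation. In 8-week livers it measured 2.55, 2.64, 1.06 and 1.35 FPKM in knockout and 10.1, 37.2, 13.2 and 11.5 FPKM in wild-type mice. It was lower in the knockout on average at both stages, with overlap after cessation and none at 8 weeks, and the difference of differences was 1.68 (interval 0.65 to 2.71). Pecr, a peroxisomal enoyl-CoA reductase, averaged 109.6 ± 16.4 and 116 ± 9.92 FPKM in knockout and wild-type livers after cessation, and 27.3 ± 3.70 and 60.7 ± 19.1 FPKM at 8 weeks (SD, n = 4), a difference of 0.99 (interval 0.37 to 1.60; 0.62 without wild-type 8-week mice 1 and 2). Aox3, an aldehyde oxidase, had a difference of 1.65 (interval 0.54 to 2.76; 0.88 without them), and Apoa1, the main protein of high-density lipoprotein, of 0.80 (interval -0.02 to 1.62; 0.39 without them). Cyp2e1, the P450 enzyme that activates CCl4, had a difference of 0.56 (interval -0.31 to 1.43), and averaged 2002 ± 684 and 2639.6 ± 841 FPKM in knockout and wild-type livers after cessation, and 106 ± 44.3 and 197 ± 21.6 FPKM at 8 weeks, where the genotypes did not overlap.

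The hepatocyte lists depended on the same pair of wild-type livers. Without wild-type 8-week mice 1 and 2 the amino acid list lay 0.00 above all genes in place of 0.53, the bile acid list 0.01 in place of 0.34 and the list of P450 and phase II enzymes -0.05 in place of 0.38. Those 2 mice averaged 0.68 and 0.60 log2 units for the amino acid list relative to its stage means, against 0.10 and -0.24 in wild-type mice 3 and 4, and -0.40, 0.12, -0.45 and -0.40 in knockout mice 1 to 4. For Bhmt, Cyp7a1, Cyp8b1, Hsd3b7 and Cth the differences without them were 2.10, 1.79, 2.19, 1.06 and 1.11. The values of Agxt, Akr1d1, Apoa1 and Aox3 moved further, as given above, so single genes differed in how far they rested on these mice.

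A few enzymes were lower in the knockout at both stages with little difference between them. Cyp27a1, which opens the alternative route of bile acid synthesis in mitochondria, stood at 105, 132, 76.6 and 132 FPKM in knockout and 202, 169, 164 and 187 FPKM in wild-type mice after cessation. Mice at 8 weeks had 54.7, 61.6, 49.6 and 54.4 FPKM in knockout and 113, 93.9, 97.0 and 88.6 FPKM in wild-type mice. The genotypes did not overlap at either stage, with log2 differences of -0.72 and -0.82 and a difference of differences of 0.10 (interval -0.46 to 0.66). Por, which passes electrons to microsomal P450 enzymes and is named after its values were seen, was without overlap too, with log2 differences of -0.74 after cessation and -0.96 at 8 weeks and a difference of 0.22 (interval -0.38 to 0.81). Both belong to the 5 genes lower each time.

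Fibrous matrix genes were higher in the knockout at both stages. All 26 genes of the list of fibrillar collagens and core fibrosis were higher after cessation and all 26 at 8 weeks, against 71.4% and 82.2% of all genes. Of these, 5 were without overlap after cessation and 11 at 8 weeks, against 3.7% and 6.06% of all genes, and 2 at both. On the difference of differences, 11 were positive and 15 negative, against 30.8% and 69.2% of all genes. An unadjusted limma p under 0.05 was found for 1, a negative one, against 2% of all genes. Col3a1 (ENSMUSG00000026043, chr1:45311538-45349706, plus strand), a fibrillar collagen chain, had 14.2, 12.2, 26.6 and 20.6 FPKM in knockout and 7.59, 4.22, 10.1 and 6.47 FPKM in wild-type mice after cessation. At 8 weeks it had 45.9, 35.9, 68.6 and 42.3 FPKM in knockout and 29.2, 25.2, 20.1 and 19.9 FPKM in wild-type mice. Every knockout mouse was above every wild-type mouse at each stage, with log2 differences of 1.25 and 0.97, and the difference of differences was 0.28 (interval -0.50 to 1.05).

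Col1a1, the main chain of scar collagen, averaged 5.91 ± 4.00 and 2.35 ± 1.12 FPKM in knockout and wild-type livers after cessation, and 28.8 ± 12.4 and 13.6 ± 1.61 FPKM at 8 weeks (SD, n = 4). Its log2 differences were 0.95 and 0.95, and the difference of differences was 0.00 with an interval of -1.003 to 1.01. Tgfb1, the main profibrotic cytokine, had 0.06 (interval -0.59 to 0.70), Acta2, alpha smooth muscle actin of myofibroblasts, -0.11 (interval -1.26 to 1.05), and Timp1, an inhibitor of matrix metalloproteinases, 0.28 (interval -1.03 to 1.60). The signs of these 4 values turned in some alternatives. Plau, the urokinase plasminogen activator, was without overlap at both stages, with a difference of -0.56 (interval -1.33 to 0.22), and Emilin1, an elastic fibre glycoprotein, had -0.33 (interval -0.92 to 0.26). Without wild-type 8-week mice 1 and 2 the differences of Col3a1, Plau and Emilin1 were 0.07, -0.30 and -0.08.

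Among matrix genes Mmp13 and Col6a3 lay farthest from zero. Mmp13 (ENSMUSG00000050578, chr9:7272514-7283331, plus strand), an interstitial collagenase, had 0.59, 0.57, 2.18 and 0.20 FPKM in knockout and 0.08, 0.24, 0.49 and 0.35 FPKM in wild-type mice after cessation. While CCl4 was given the levels were 17.0, 13.1, 21.8 and 17.0 FPKM in knockout and 3.84, 3.57, 2.05 and 2.30 FPKM in wild-type mice. After cessation knockout mouse 4 lay inside the wild-type range, and at 8 weeks every knockout mouse was above every wild-type mouse. The difference of differences was -1.76 (interval -2.50 to -1.02, limma adjusted p = 0.26). The adjusted p was 0.011 without cessation knockout mouse 3 and 0.035 without cessation knockout mice 2 and 3 and wild-type mouse 1. Since nearly all cessation values lie below 1 FPKM, the added 1 shrinks the genotype difference there: the ratio of the knockout mean to the wild-type mean was 3.05 after cessation and 5.85 at 8 weeks.

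Col6a3, a chain of microfibrillar collagen VI, had 2.98, 2.04, 1.93 and 1.51 FPKM in knockout and 1.55, 2.20, 2.18 and 1.68 FPKM in wild-type mice after cessation, with overlap. The 8-week values were 4.61, 3.90, 10.7 and 4.67 FPKM in knockout and 2.58, 1.91, 3.11 and 1.76 FPKM in wild-type mice, without overlap. The difference was -0.90 (interval -1.60 to -0.20), and -0.58 without knockout 8-week mice 3 and 4. In the list of matrix proteases and inhibitors, 14 of 32 genes were positive and 18 negative, against 30.8% and 69.2% of all genes. Mmp13 was 1 of 2 with an unadjusted limma p under 0.05, both negative, against 2% of all genes. Mmp12, the macrophage elastase, was without overlap at both stages, with 31.8, 19.2, 127 and 32.3 FPKM in knockout and 6.49, 3.37, 14.2 and 12.9 FPKM in wild-type mice after cessation, and 106, 78.6, 82.0 and 46.2 FPKM in knockout and 27.2, 23.0, 17.2 and 42.3 FPKM in wild-type mice at 8 weeks. Its difference was 0.68 (interval -0.82 to 2.19), and 0.27 without cessation knockout mice 2 and 3 and wild-type mouse 1. Knockout mouse 3 had the highest value after cessation.

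Myeloid markers were also higher in the knockout at both stages. All 28 monocyte and recruited macrophage genes were higher after cessation and 26 at 8 weeks, against 71.4% and 82.2% of all genes. At each stage 10 were without overlap, against 3.7% and 6.06% of all genes, and 4 were at both. Plac8, expressed by monocytes, had 33.1, 22.5, 22.8 and 24.4 FPKM in knockout and 15.1, 12.8, 15.9 and 17.3 FPKM in wild-type mice after cessation. Values at 8 weeks were 73.9, 65.1, 120.5 and 90.0 FPKM in knockout and 35.1, 37.2, 27.5 and 43.3 FPKM in wild-type mice. There was no overlap at either stage, and the difference was -0.54 (interval -1.15 to 0.07). Ly6c2, which marks inflammatory monocytes and shares sequence with other Ly6 genes, had a difference of -1.08 (interval -2.32 to 0.15) and was without overlap at 8 weeks. Without knockout 8-week mice 3 and 4 the differences of Plac8 and Ly6c2 were -0.25 and -0.41.

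Scar-associated macrophage genes were higher in the knockout for 16 of 16 at each stage, against 71.4% of all genes after cessation and 82.2% at 8 weeks. Of the 16, 8 were without overlap after cessation and 4 at 8 weeks, against 3.7% and 6.06% of all genes. Positive differences were found for 12 of 16, against 30.8% of all genes. Gpnmb, a glycoprotein of lipid-handling macrophages, had 15.5, 11.8, 79.6 and 18.9 FPKM in knockout and 4.53, 2.16, 10.8 and 6.12 FPKM in wild-type mice after cessation, without overlap. In 8-week livers it measured 87.2, 48.1, 86.0 and 24.8 FPKM in knockout and 19.3, 23.3, 22.4 and 112 FPKM in wild-type mice, where wild-type mouse 4 was the highest of all. The difference was 1.24 (interval -0.73 to 3.22), and 0.77 without cessation knockout mice 2 and 3 and wild-type mouse 1. Clec4f, a receptor of resident Kupffer cells, had a difference of -0.85 (interval -1.69 to -0.01; -0.35 without cessation knockout mice 2 and 3 and wild-type mouse 1), with 86.0, 103, 37.8 and 99.7 FPKM in knockout and 156, 92.5, 73.3 and 91.6 FPKM in wild-type mice after cessation. Of the 19 Kupffer cell genes, Clec4f included, 10 were positive, against 30.8% of all genes, and 9 negative.

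Acute phase genes, which hepatocytes secrete in response to interleukin 6 and related cytokines, mostly stood higher relative to wild type after cessation than at 8 weeks. Of 33 tested, 27 were positive, against 30.8% of all genes, and the list medians were 0.43 after cessation and 0.04 at 8 weeks. Orm2 alone had an unadjusted p under 0.05, against 3 genes with libraries scaled by median ratios and 3 with quantiles equalised. Orm2, an orosomucoid, stood at 1977, 3190.0, 3016 and 779 FPKM in knockout and 168, 258, 870.4 and 843 FPKM in wild-type mice after cessation. Mice at 8 weeks had 167, 229.9, 155 and 99.6 FPKM in knockout and 69.5, 235, 151 and 69.8 FPKM in wild-type mice, and the genotypes overlapped at both stages through knockout mouse 4 after cessation. Its difference was 1.77 (interval 0.05 to 3.49), and 0.67 without cessation knockout mice 2 and 3 and wild-type mouse 1.

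Socs3, the feedback inhibitor of interleukin 6 signalling, had 12.1, 12.9, 10.2 and 6.98 FPKM in knockout and 4.01, 3.93, 4.79 and 4.20 FPKM in wild-type mice after cessation, without overlap. At 8 weeks it had 11.2, 5.59, 14.3 and 6.97 FPKM in knockout and 5.05, 4.63, 7.78 and 8.35 FPKM in wild-type mice, with overlap. The difference was 0.66 (interval -0.08 to 1.40). Saa1, serum amyloid A, and Lcn2, lipocalin 2, had differences of 0.95 (interval -0.96 to 2.85) and 0.94 (interval -0.58 to 2.46). The Saa1 and Lcn2 differences were 0.43 and 0.06 without cessation knockout mice 2 and 3 and wild-type mouse 1. Saa1 was without overlap after cessation only, and its reads may be shared with closely similar Saa genes. Hamp, the iron hormone hepcidin, had 2912, 3536, 2275 and 1777 FPKM in knockout and 3358, 3577, 806 and 1407 FPKM in wild-type mice after cessation, and 79.2, 238, 164 and 241 FPKM in knockout and 2138, 848, 1088 and 42.6 FPKM in wild-type mice at 8 weeks. The difference of 2.11 had the widest interval of the genes named here (-0.72 to 4.93), with wild-type 8-week mouse 4 far under the other 3, and it was 0.79 without wild-type 8-week mice 1 and 2. For complement and coagulation, 30 of 33 genes were positive, against 30.8% of all genes. The list lay 0.45 above all genes, but -0.05 without wild-type 8-week mice 1 and 2.

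Erythroid and heat shock lists lay below all genes, with wide spread between mice. Globin FPKM summed over 4 genes were 583, 750.1, 2205 and 1022 in knockout and 1831, 1956, 5107 and 1246 in wild-type mice after cessation. At 8 weeks they were 8771, 4675, 10012 and 4140.4 in knockout and 1154, 2298, 1587 and 7370 in wild-type mice. Knockout minus wild type of the log2 sum was -1.13 after cessation and 1.44 at 8 weeks. The difference of differences was -2.58 (exact permutation p = 0.0126 over 4900 within-stage assignments, adjusted p = 0.114 over the 9 library tests made). Hbb-bt and Hba-a1, whose near-identical neighbours can share reads, had differences of -2.71 (interval -4.38 to -1.03) and -2.55 (interval -4.35 to -0.75). Of 13 erythroid genes, 6 had an unadjusted p under 0.05, all negative, against 2% of all genes. Blood retained in the tissue was not recorded in the labels, and its part in these values was not tested.

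Of 22 cytosolic chaperone genes, 21 were negative, against 69.2% of all genes. An unadjusted p under 0.05 was found for 6, all negative, against 2% of all genes. Hspa1b, an inducible heat shock protein with a near-identical neighbour, had 2.32, 0.66, 1.61 and 1.73 FPKM in knockout and 0.88, 1.26, 1.76 and 1.56 FPKM in wild-type mice after cessation. While CCl4 was given the levels were 109.5, 96.6, 94.96 and 81.9 FPKM in knockout and 3.24, 9.10, 83.3 and 46.2 FPKM in wild-type mice, so wild-type mice 3 and 4 stood far above wild-type mice 1 and 2. Its difference was -2.15 (interval -4.15 to -0.15), and -0.51 without wild-type mice 1 and 2. Hspb1, a small heat shock protein, had -2.23 (interval -4.04 to -0.42), and -1.07 without that pair. Without wild-type 8-week mice 1 and 2 none of the 22 had an unadjusted p under 0.05 (0 at an adjusted p under 0.05), and the list lay 0.19 below all genes in place of 0.47.

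For some genes with a small p the genotypes were without overlap after cessation and overlapped at 8 weeks, although no gene was called after cessation or for the difference. Fbf1 (ENSMUSG00000020776, chr11:116142285-116168166, minus strand), a protein of the distal appendages that anchor the cilium, had the second smallest p of all genes tested. It had 3.09, 3.44, 2.03 and 2.97 FPKM in knockout and 11.2, 6.72, 6.75 and 9.11 FPKM in wild-type mice after cessation, with every knockout mouse below every wild-type mouse. The 8-week values were 2.20, 1.84, 3.69 and 1.41 FPKM in knockout and 1.02, 0.996, 1.92 and 2.16 FPKM in wild-type mice, with overlap. The log2 difference was -1.27 after cessation and 0.37 at 8 weeks, and the difference of differences was -1.64 (interval -2.31 to -0.96, limma adjusted p = 0.26). Leaving out any 1 library moved it only between -1.77 and -1.45.

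Cys1, cystin, a membrane-associated protein of the primary cilium, had 3.14, 2.71, 3.98 and 3.19 FPKM in knockout and 9.96, 7.19, 5.37 and 8.07 FPKM in wild-type mice after cessation, without overlap. Values at 8 weeks were 1.57, 1.65, 3.30 and 2.22 FPKM in knockout and 1.59, 1.68, 3.29 and 1.64 FPKM in wild-type mice, which overlapped fully. The difference was -1.07 (interval -1.71 to -0.43). Syne4, nesprin-4 of the outer nuclear membrane, was higher in the knockout and is named after its values were seen. It had 9.45, 7.53, 7.71 and 6.58 FPKM in knockout and 3.61, 3.52, 3.68 and 3.86 FPKM in wild-type mice after cessation, where the wild-type mice lay close together and far below the knockout. At 8 weeks all 8 mice had between 0.377 and 1.51 FPKM, and the difference was 0.78 (interval 0.21 to 1.35).

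Lipid and glucocorticoid-responsive genes were among them. Fkbp5, a cochaperone of steroid receptors induced by glucocorticoids, had 15.1, 7.59, 9.10 and 12.9 FPKM in knockout and 29.5, 29.1, 20.02 and 33.8 FPKM in wild-type mice after cessation, without overlap. In 8-week livers it measured 21.1, 21.4, 28.4 and 19.9 FPKM in knockout and 28.9, 18.3, 37.1 and 36.8 FPKM in wild-type mice, and the difference was -0.92 (interval -1.63 to -0.20). It was -0.55 without cessation knockout mice 2 and 3 and wild-type mouse 1, and -0.59 without wild-type 8-week mice 1 and 2. Of 20 glucocorticoid targets, Fkbp5 included, 12 were positive, against 30.8% of all genes, and 8 negative. Plin4, which coats lipid droplets, averaged 1.02 ± 0.521 and 3.19 ± 1.32 FPKM in knockout and wild-type livers after cessation, and 1.03 ± 0.506 and 0.960 ± 0.283 FPKM at 8 weeks (SD, n = 4). It had a difference of -1.05 (interval -1.76 to -0.34) and no overlap after cessation. Acacb, the acetyl-CoA carboxylase that restrains fatty acid entry into mitochondria, was without overlap after cessation too, with a difference of -0.997 (interval -1.63 to -0.36).

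Among 43 fatty acid oxidation and PPAR-alpha genes, 39 were lower in the knockout after cessation and 33 at 8 weeks, against 28.6% and 17.8% of all genes. Of these, 8 were without overlap after cessation and 0 at 8 weeks, against 0.977% and 0.629% of all genes. Of the differences of differences, 26 were negative, a smaller share than the 69.2% of all genes. An unadjusted p under 0.05 was found for 4, all negative, against 2% of all genes. That count stayed at 4 with a common total and without wild-type 8-week mice 1 and 2. It was 2 with median-ratio scaling and with quantile normalization. Without knockout 8-week mice 3 and 4, or without cessation knockout mice 2 and 3 and wild-type mouse 1, it was also 2. The list median relative to all genes was -0.03. Acot1, a cytosolic acyl-CoA thioesterase with close paralogs, had 8.03, 3.79, 2.65 and 8.63 FPKM in knockout and 7.90, 17.8, 20.4 and 22.3 FPKM in wild-type mice after cessation, with wild-type mouse 1 inside the knockout range. At 8 weeks it averaged 12.1 ± 4.79 and 11.04 ± 4.70 FPKM in knockout and wild-type livers (SD, n = 4), and the difference was -1.58 (interval -2.70 to -0.47). Vnn1, a pantetheinase induced by PPAR-alpha, had a difference of -0.99 (interval -1.73 to -0.26).

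Without overlap at both stages, 1 gene was higher in the knockout after cessation and lower at 8 weeks (0.00939% of genes tested), and 2 were lower after cessation and higher at 8 weeks (0.0188%). Nr1d1 (ENSMUSG00000020889, chr11:98767932-98775333, minus strand), the clock repressor REV-ERB-alpha, had 19.3, 29.7, 19.4 and 25.8 FPKM in knockout and 12.6, 15.2, 19.1 and 14.6 FPKM in wild-type mice after cessation, the lowest knockout mouse lying just above the highest wild-type mouse. Mice at 8 weeks had 12.3, 12.4, 7.53 and 12.9 FPKM in knockout and 13.4, 22.6, 19.3 and 13.8 FPKM in wild-type mice, with every knockout mouse below. The difference was 1.14 (interval 0.50 to 1.78, limma adjusted p = 1.00). The labels give no time of day. Among 19 clock genes, Nr1d1 included, 4 were positive and 15 negative, against 30.8% and 69.2% of all genes. At an unadjusted limma p under 0.05, 1 was positive, Nr1d1 itself, and 1 negative, against 0.761% and 2% of all genes.

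Amigo2, an adhesion protein, and Cep57l1, a centrosomal protein, went the other way. Amigo2 had 3.46, 3.19, 3.40 and 2.95 FPKM in knockout and 4.51, 4.51, 4.33 and 5.02 FPKM in wild-type mice after cessation, and 2.29, 2.51, 3.60 and 2.41 FPKM in knockout and 2.14, 2.24, 1.55 and 1.84 FPKM in wild-type mice at 8 weeks. Its difference was -0.72 (interval -1.18 to -0.25). Cep57l1 had 0.99, 1.63, 0.93 and 1.42 FPKM in knockout and 1.74, 1.80, 1.96 and 2.02 FPKM in wild-type mice after cessation, and 1.98, 1.66, 2.20 and 2.25 FPKM in knockout and 1.60, 1.49, 1.52 and 1.51 FPKM in wild-type mice at 8 weeks. Its difference was -0.62 (interval -1.06 to -0.19).

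**Figure D4:**
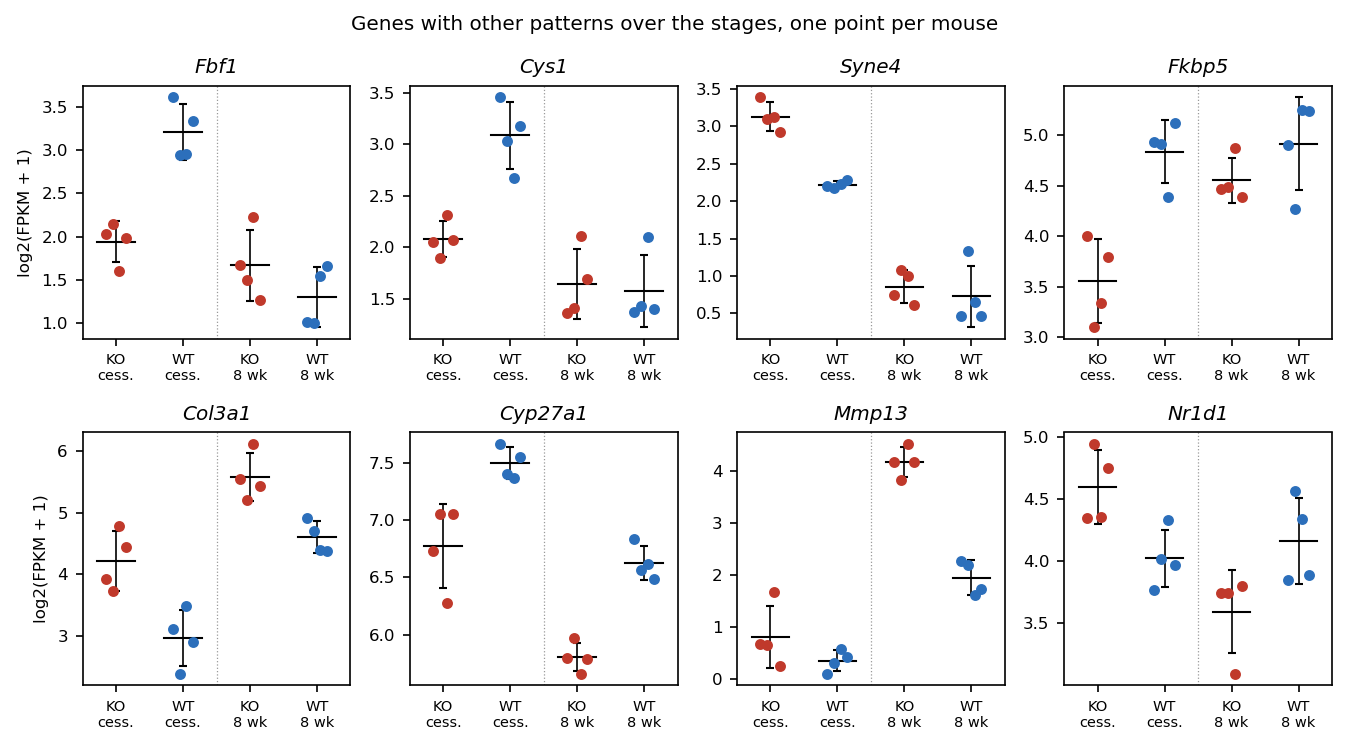
Levels of 8 genes in each mouse, on the log2(FPKM + 1) scale, with group mean and SD; knockout stands left of wild type and the livers after cessation left of those at 8 weeks. Fbf1, Cys1, Syne4 and Fkbp5 separate the genotypes after cessation, Col3a1 and Cyp27a1 at both stages, Mmp13 at 8 weeks, and Nr1d1 at both stages in opposite directions.

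Prg4, lubricin, and Alpl, tissue-nonspecific alkaline phosphatase, were further genes with a small p. Prg4 averaged 47.7 ± 7.88 and 37.01 ± 5.32 FPKM in knockout and wild-type livers after cessation, and 15.1 ± 3.37 and 26.2 ± 5.74 FPKM at 8 weeks (SD, n = 4), a difference of 1.11 (interval 0.50 to 1.72). Alpl averaged 7.25 ± 1.69 and 10.2 ± 1.59 FPKM in knockout and wild-type livers after cessation, and 11.1 ± 1.52 and 7.16 ± 2.45 FPKM at 8 weeks, a difference of -1.07 (interval -1.69 to -0.45). Both overlapped at each stage. Of the 48 cell cycle genes 33 were positive, against 30.8% of all genes. Stmn1, a microtubule regulator of dividing cells, had a difference of 0.96 (interval 0.10 to 1.82), and 0.60 without cessation knockout mice 2 and 3 and wild-type mouse 1.

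**Figure D5:**
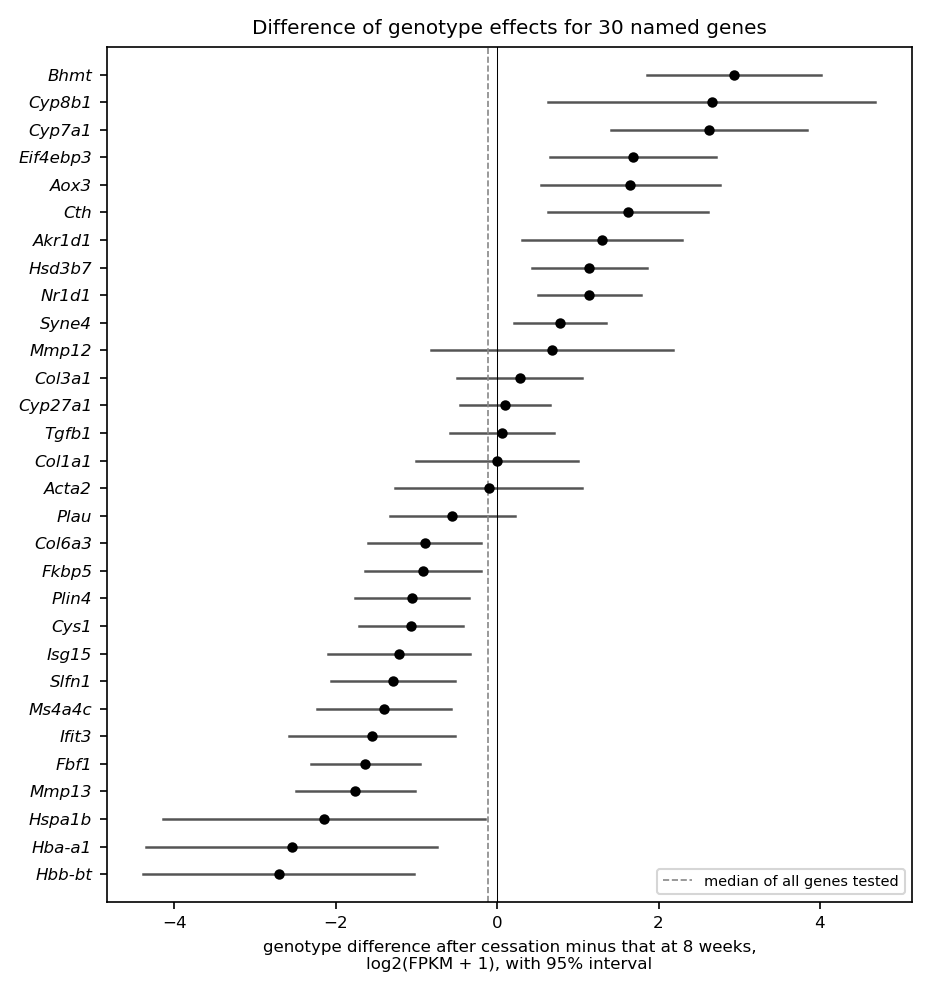
Points are the genotype difference after cessation minus that at 8 weeks for 30 genes, on the log2(FPKM + 1) scale, with 95% intervals as lines; the dashed line marks the median of all genes tested. Bhmt lies at 2.94 and Mmp13 at -1.76 with intervals clear of 0, while the intervals of Col1a1, Col3a1, Tgfb1, Acta2, Plau, Mmp12 and Cyp27a1 include 0, and no gene passed the threshold adjusted over all genes.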

How the data were processed

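Liver RNA of 16 mice was sequenced, and the authors deposited 1 table of FPKM values per stage. Reads were aligned with HISAT to mm10 and quantified with Cufflinks, per the submitters' processing notes, which give no versions. The NEBNext Ultra kit was used at 8 weeks, and that kit or VAHTS Universal V6 after cessation, per the labels' protocols; the sources used here name neither annotation nor strand setting. The 8-week values did not resolve into whole reads, and the cessation values were not examined for this. Depth is therefore unknown and no counting error is given. In all, 0 columns went unused. Totals of the deposited FPKM were 878890 to 959700 after cessation and 428140 to 478060 at 8 weeks. Mitochondrial genes (13) are listed for cessation only.

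Genes were joined by Ensembl ID, with a mean of at least 0.5 FPKM in each table. Levels as log2(FPKM + 1) were fitted with limma 3.58.1 (R 4.3.3, statmod 1.5.0), 1 mean per group, with trended, robust moderation, 2-sided tests and Benjamini-Hochberg adjustment over all genes at 0.05. The pseudocount understates changes of low genes. The fit was tested on simulated data. Library values were compared by exact permutation. Labels number the mice but say nothing of litters or batches, so p-values measure the spread between these mice.

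The members, lists and genes were chosen with earlier results of these data known. Named were Mfap2, the 10 genes with the smallest p in each direction, genes without overlap in opposite directions, up to 3 genes per list by p and a fixed panel of 75 genes; only some are described. Irf7, Slco1a4, Por and Syne4 were chosen after their values were seen. Alternatives covered pseudocount, filter, scaling, spread, replicate block and left-out mice. Coordinates are from GENCODE M21 (mm10), promoters from RefSeq.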

Additional observations from a re-analysis of the deposited data

Results flagged for a closer look

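Among 248 groups of 4 mice examined for the named genes, 12 held a mouse whose gap to its nearest neighbour passed Dixon's 95% critical value, where chance gives about 5%. Among knockout livers after cessation these were mouse 1 for Ifit3 (11.2 FPKM, low) and Cyp7a1 (34.9 FPKM, high), mouse 3 for Ms4a4c (3.59 FPKM, high) and Aox3 (9.74 FPKM, low), and mouse 4 for Pecr (134 FPKM, high). Among wild-type livers after cessation it was mouse 3 for Cyp7a1 (15.1 FPKM, high). Among knockout livers at 8 weeks it was mouse 3 for Col6a3 (10.7 FPKM, high) and Nr1d1 (7.53 FPKM, low). Among wild-type livers at 8 weeks these were mouse 3 for Cys1 (3.29 FPKM, high) and Vnn1 (8.74 FPKM, high), and mouse 4 for Plau (5.61 FPKM, high) and Gpnmb (112 FPKM, high).

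For 3 genes every knockout mouse lay on one side of every wild-type mouse after cessation and on the other side at 8 weeks. The difference of differences was 1.14 for Nr1d1, -0.72 for Amigo2 and -0.62 for Cep57l1. Their unadjusted limma p were 0.0014, 0.0043 and 0.0070, and none passed after adjustment over all genes (adjusted p = 1.00 for each).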

How the results depend on the processing

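The count of genes past the threshold for the difference was 0 in every alternative except without cessation knockout mice 2 and 3 and wild-type mouse 1 (1, Mmp13) and when single mice were left out (0 to 1: Mmp13 without cessation knockout mouse 3, Bhmt without 8-week wild-type mouse 3, Cyp7a1 without 8-week wild-type mouse 4). The count at an unadjusted p under 0.05 was 123 without 8-week knockout mice 3 and 4, and 182 to 829 with single mice left out. The median over genes was 0.0576 without 8-week wild-type mice 1 and 2, and -0.20 to -0.04 with single mice left out. The 46 calls at 8 weeks became 10 with a pseudocount of 0.1, 24 with at least 2 FPKM, 25 with a common total, 6 with median-ratio scaling, 4 with quantile normalization, 7 with a spread per stage, 7 with a separate fit per stage, 2 without 8-week wild-type mice 1 and 2, 218 without the 3 cessation mice, 0 without 8-week knockout mice 3 and 4 and 3 to 1254 with single mice left out. After cessation 2 genes were called with median-ratio scaling, 2 with quantile normalization and 0 to 2 with single mice left out. The cause was not tested.

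With a replicate block, 0 differences and 5 genes at 8 weeks were called and 328 had an unadjusted p under 0.05. Deviations of same-numbered mice from their group means had r from -0.67 to 0.38 after cessation and -0.45 to 0.39 at 8 weeks. For differently numbered mice r ran from -0.56 to 0.58 and from -0.44 to 0.60. With 4 same-numbered pairs a stage, these values cannot settle whether the numbers pair mice.

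Signs turned for Acta2 (0.42 and 0.12 with pseudocounts of 0.1 and 0.5, 0.0833 with median-ratio scaling, 0.0419 without 8-week knockout mice 3 and 4, -0.47 to 0.34 with single mice left out), Col1a1 (-0.0153 with a common total, -0.0766 without the 3 cessation mice, -0.34 to 0.24), Tgfb1 (-0.0942 without the 3 cessation mice, -0.0314 without 8-week knockout mice 3 and 4, -0.12 to 0.18), Timp1 (-0.0547 to 0.60) and Por (-0.0609 without 8-week knockout mice 3 and 4). Of the other values of named genes across settings, 1759 kept their sign and side of the threshold and 4 passed it. With 4 mice a group and unknown depth, small differences were not detectable.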
